A study of Vitis vinifera with 42 samples.

Results

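The genes described here act on anthocyanins after the coloured core has been made. They decorate the molecule or bring it into the vacuole. They were taken by gene identifier and are 5 of the 28940 genes in the deposited table: the glutathione S-transferase GST4 (VIT_204s0079g00690), the anthocyanin O-methyltransferase AOMT1 (VIT_201s0010g03510), the anthocyanin acyltransferase 3AT (VIT_203s0017g00870), and the anthoMATE transporter genes VIT_216s0050g00910 and VIT_216s0050g00930. All 5 were among the 21902 genes that reached a mean of 1 FPKM in at least 1 group and were tested. FPKM is a read count scaled to transcript length and library size, so levels of different genes are compared per length.

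Anthocyanins are assembled on the cytosolic side of the endoplasmic reticulum and stored in the vacuoles of grape skin cells. The glucosyltransferase UFGT stabilises the pigment with a sugar. O-methyltransferases such as AOMT1 then cap hydroxyl groups of the B ring, which turns delphinidin-type into petunidin- and malvidin-type pigment and cyanidin-type into peonidin-type pigment. 3AT adds an acyl group to the glucose. Glutathione S-transferases of the GST4 type are thought to carry anthocyanins to the vacuole by binding them, and MATE transporters of the anthoMATE type move acylated anthocyanins across its membrane. In red cultivars the pigment appears at véraison, when the berry softens and colours, and VviMYBA1 and VviMYBA2 are the MYB factors known to switch on UFGT at that time.

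RNA came from field-grown, own-rooted Cabernet Sauvignon vines of 1 season, from pooled berries whose seeds had been taken out, so skin and flesh were extracted together. T2 clusters stayed in the light and were sampled at 6 stages of the modified Eichhorn-Lorenz (E-L) scale, in green berries (E-L 29 and 31), at the start of véraison (35), during ripening (36 and 37) and at harvest (38). T1 clusters were enclosed from E-L 29 until harvest in 2-layer kraft bags with a black inner face and were sampled from E-L 31 on. T8 clusters wore the same bags from E-L 35 and were uncovered at E-L 36, and were sampled at E-L 36, 37 and 38. The 42 libraries (T2 had 18, T1 15 and T8 9) made 14 groups of 3 biological replicates named A, B and C. In a whole berry extract, fewer skin cells and less RNA of a gene per skin cell cannot be told apart.

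The deposited annotation was checked against the names. It gave VIT_204s0079g00690 as a glutathione S-transferase with the gene ontology terms for anthocyanin metabolism and the vacuole membrane, and its accession matched GST4 in the RefSeq gene table of assembly ASM3070453v1. VIT_201s0010g03510 was annotated as a caffeoyl-CoA O-methyltransferase with terms for anthocyanin synthesis, pigmentation and methylation. Its orthology hit was the RefSeq gene LOC100250567, which VIT_201s0010g03490 shared, and not FAOMT, the RefSeq gene with the synonym VvAOMT, so its name also rests on the gene identifier. Both transporter genes carried the orthology term of the MATE family and a best hit to TRANSPARENT TESTA 12-like proteins, with the same RefSeq protein as best hit. VIT_203s0017g00870 was annotated only as a shikimate O-hydroxycinnamoyltransferase-like acyltransferase, so its name 3AT rests on the gene identifier.

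Summed FPKM per library ranged from 561036 to 672526.1. The table holds no read counts, and the total reads that the study lists for each library were not used here. Seed tissue markers did not follow the removal of seeds evenly. The mean log2(FPKM + 1) of 13 tested seed storage and late embryogenesis abundant genes was 5.76 ± 0.72 (SD, n = 3) in T1 at E-L 31 against 3.87 ± 1.19 in T2, and 5.66 ± 0.62 in T8 at E-L 36 against 2.09 ± 0.88 in T2. T8 berries still had 4.92 ± 0.10 at E-L 37, against 2.47 ± 1.00 in T2. T1 berries had 3.11 ± 1.59 at E-L 35, against 2.33 ± 0.48 in T2. Within groups, the deviations of the 5 genes from their group means correlated with those of the score at r between -0.18 and 0.36 over 42 libraries, given as a description.

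In T2 berries, 4 of the 5 genes were close to silent before véraison and came on together between E-L 31 and E-L 35. All 5 genes rose over that step, where 12.5% of all tested genes rose, and the rise spanned a wide range from VIT_216s0050g00930 to GST4. GST4 read 1.03, 0.13 and 1.64 FPKM in the 3 libraries at E-L 31 and 254.71, 277.46 and 249.97 FPKM at E-L 35. The groups were far apart, and the difference was 7.16 ± 0.24 on the log2(FPKM + 1) scale (SE, limma, adjusted p = 2.18e-20). AOMT1 read 1.28, 0.62 and 1.25 FPKM at E-L 31 and 73.62, 91.71 and 80.59 FPKM at E-L 35, a difference of 5.35 ± 0.19 (limma, adjusted p = 6.22e-20). 3AT read 0.75, 0.22 and 2.01 FPKM and then 48.10, 52.82 and 56.11 FPKM, a difference of 4.84 ± 0.26 (limma, adjusted p = 8.87e-16).

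The transporter genes differed in this step. VIT_216s0050g00910 read 1.04, 0.57 and 5.78 FPKM at E-L 31 and 133.44, 158.23 and 141.04 FPKM at E-L 35, a difference of 5.70 ± 0.31 (limma, adjusted p = 1.53e-15). VIT_216s0050g00930 was already present in young berries. It read 14.68, 11.22 and 10.83 FPKM at E-L 29, 27.45, 23.62 and 22.16 FPKM at E-L 31 and 33.63, 41.59 and 45.34 FPKM at E-L 35. Its rises were 0.95 ± 0.19 (limma, adjusted p = 8.38e-05) and 0.69 ± 0.19 (adjusted p = 0.0026). It was the 1 gene of the 5 that rose from E-L 29 to E-L 31, where 19.2% of all tested genes rose, while 3AT (-0.72 ± 0.26, adjusted p = 0.0207) and VIT_216s0050g00910 (-0.79 ± 0.31, adjusted p = 0.0356) fell, as did 31.3% of all tested genes. Both falls lay below 7 FPKM and were lost when 1 of 3 libraries was left out: for 3AT without T2 replicate A at E-L 29, or A or B at E-L 31 (adjusted p between 0.0584 and 0.21), and for VIT_216s0050g00910 without T2 replicate B at E-L 29, or A or B at E-L 31 (adjusted p between 0.185 and 0.349). Both were also lost in a fit on only the groups compared (adjusted p = 0.166 and 0.369), and the second with median-of-ratios scaling (0.0625).

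**Figure D1:**
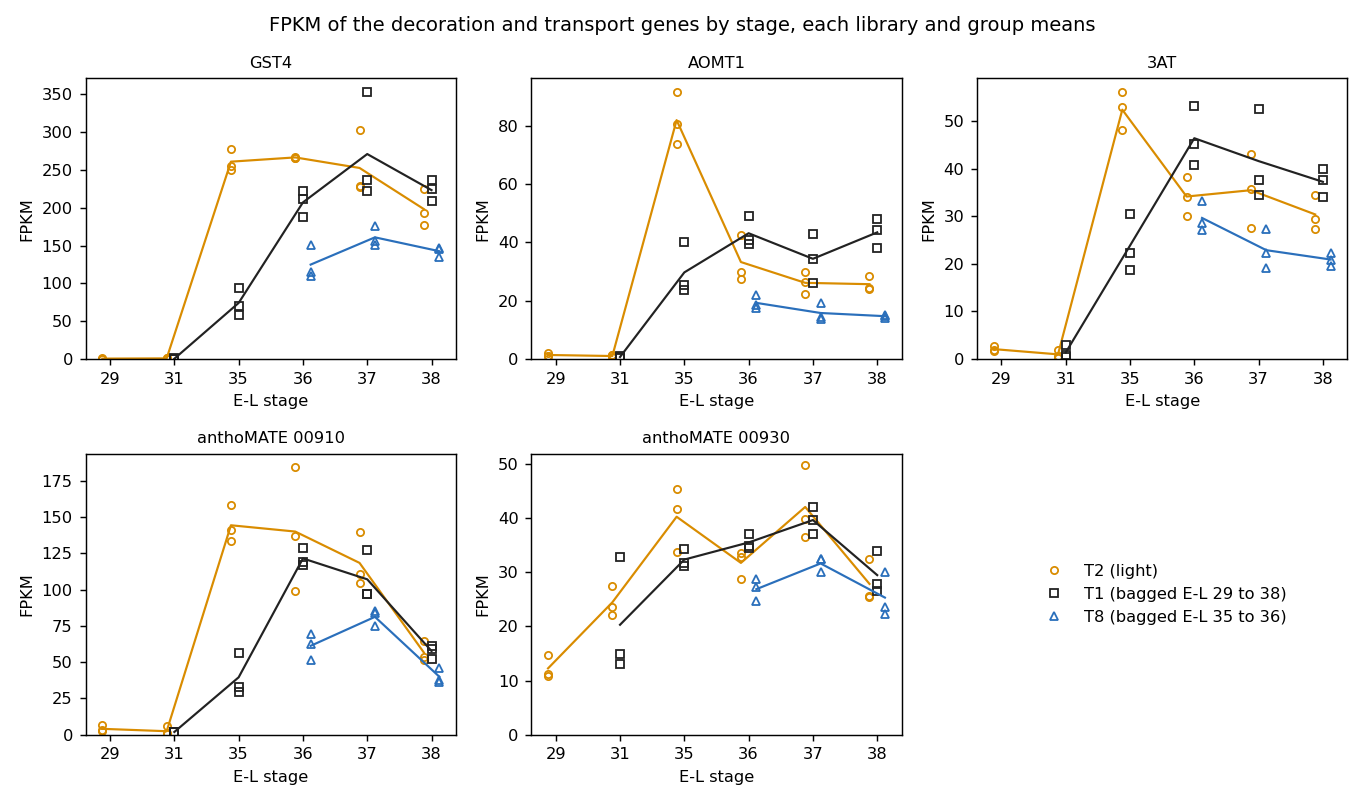
FPKM of each of the 5 genes against E-L stage, with open circles for T2 libraries, squares for T1 and triangles for T8, and lines through the means of 3 libraries. In T2 the first 4 genes step up at E-L 35, T1 comes close to T2 by E-L 36, and T8 lies under T1 and T2 at all 3 stages for GST4 and AOMT1.

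After E-L 35 the genes of T2 berries parted. The means of GST4, the carrier protein, from E-L 35 to harvest were 260.71 ± 14.7, 266.33 ± 0.517, 252.43 ± 43.1 and 198.13 ± 23.9 FPKM (SD, n = 3), and no step between neighbouring stages passed the test (adjusted p from 0.342 to 0.972). Its harvest libraries, at most 224.24 FPKM, all lay under those of E-L 35, at least 249.97 FPKM, a pair of stages that was not tested. AOMT1 peaked sharply. Its libraries fell from the E-L 35 values above to 42.63, 29.87 and 27.38 FPKM at E-L 36, a change of -1.29 ± 0.19 (limma, adjusted p = 9.83e-06). It was the 1 gene of the 5 that fell at this step, where 10.9% of all tested genes fell, and its means were then 26.16 ± 3.89 and 25.69 ± 2.44 FPKM. 3AT went from 52.34 ± 4.03 to 34.12 ± 4.07 FPKM between E-L 35 and 36, and the difference of -0.61 ± 0.26 missed the threshold (adjusted p = 0.0961).

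The transporter genes declined towards harvest. None of the 5 genes passed the limma test from E-L 36 to E-L 37 (1 at an unadjusted p under 0.05), against 33.6% of all tested genes. Between E-L 37 and harvest 2 of 5 fell, against 16.1% of all tested genes. VIT_216s0050g00910 went from 104.61, 139.43 and 110.96 FPKM to 51.51, 53.76 and 64.78 FPKM, a change of -1.04 ± 0.31 (adjusted p = 0.0127). VIT_216s0050g00930 went from 36.46, 49.78 and 39.74 FPKM to 25.48, 25.61 and 32.34 FPKM, a change of -0.57 ± 0.19 (adjusted p = 0.0219). Both calls were lost without T2 replicate B at E-L 37 (adjusted p = 0.0647 and 0.134), and that of VIT_216s0050g00930 also without replicate A or B at E-L 38 (adjusted p = 0.0841 and 0.0819). The first was lost as well with a pseudocount of 0.1 (adjusted p = 0.0552) and the second in a fit on only the groups compared (0.0514).

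Ordered over all 14 groups, GST4 was the most abundant of the 5 genes per length in each group from E-L 35 on. Its highest mean was 270.78 FPKM in T1 at E-L 37, and the libraries of the top 7 groups formed a chain in which neighbours overlapped, down to T2 at E-L 38. The 3 T8 groups followed, then T1 at E-L 35, and last the 3 groups from E-L 29 and 31, none of which averaged over 0.93 FPKM. One T1 library at E-L 31 was listed at 0 for GST4. AOMT1 had a separate top group, T2 at E-L 35, whose lowest library (73.62 FPKM) lay above every other library. The next 7 groups, from T1 at E-L 38 (43.47 FPKM) to T2 at E-L 38 (25.69 FPKM), overlapped neighbour by neighbour, and the 3 T8 groups lay beneath them at 19.28, 15.81 and 14.72 FPKM. The level of VIT_216s0050g00930 moved least, from 12.24 FPKM in T2 at E-L 29 to 41.99 FPKM in T2 at E-L 37.

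In green berries no difference was detected for these genes between bagged and light clusters. At E-L 31 none of the 5 differed between T1 and T2 in the limma test (0 at an unadjusted p under 0.05), while 29.1% of all tested genes did. GST4 read 0.64, 0.00 and 0.89 FPKM in T1, AOMT1 1.03, 0.68 and 0.46 FPKM, and 3AT 0.43, 2.86 and 0.85 FPKM, all overlapping T2. VIT_216s0050g00930 read 32.79, 13.08 and 14.97 FPKM in T1, so replicate A stood apart from the other two. Without it the gene was lower in T1 (-0.76, adjusted p = 0.000139). GST4 was called lower without T2 replicate B (-0.67, adjusted p = 0.0374) and VIT_216s0050g00910 higher without T2 replicate C (0.72, adjusted p = 0.0291). From T2 at E-L 29, the start of bagging, to T1 at E-L 31, VIT_216s0050g00930 rose (0.58 ± 0.19, adjusted p = 0.0113), as did 15.7% of all tested genes, and AOMT1 fell (-0.48 ± 0.19, adjusted p = 0.0428), as did 29.4%. The first call was lost without T2 replicate C (adjusted p = 0.0558) or T1 replicate A (0.305), and the second without T2 replicate C (0.252) or T1 replicate B or C (0.0825 and 0.186). In a fit on only the groups compared neither was called (adjusted p = 0.295 and 0.158), and AOMT1 was not called without a filter on low values (0.0541) or with median-of-ratios scaling (0.0961).

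At E-L 35, when T2 berries had switched the genes on, T1 berries held 4 of the 5 at a much lower level, with the T1 means at 28.5% (GST4), 36.3% (AOMT1), 45.5% (3AT) and 27.4% (VIT_216s0050g00910) of the T2 means. These 4 of 5 genes differed, all lower in T1, where 11.7% of all tested genes differed, and the median over the 5 was -1.47 against 0.00 over all genes. GST4 read 70.42, 57.90 and 94.20 FPKM in T1, all far under the lowest T2 library (249.97), a difference of -1.83 ± 0.24 (limma, adjusted p = 3.77e-06). VIT_216s0050g00910 read 33.18, 29.19 and 56.34 FPKM in T1 against at least 133.44 in T2, a difference of -1.89 ± 0.31 (limma, adjusted p = 8.26e-05).

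The modifying enzymes showed the same direction. AOMT1 read 25.40, 23.53 and 40.29 FPKM in T1 at E-L 35, a difference of -1.47 ± 0.19 (limma, adjusted p = 3.35e-06). 3AT read 22.33, 18.73 and 30.40 FPKM, a difference of -1.13 ± 0.26 (limma, adjusted p = 0.00334). For all 4 genes no T1 library reached the T2 range, as for 14.2% of all tested genes, and T1 replicate C was the highest of the 3. VIT_216s0050g00930 read 34.18, 31.06 and 31.64 FPKM in T1 and overlapped T2, with a difference of -0.30 (95% interval from -0.68 to 0.08, adjusted p = 0.352). The call of 3AT was lost with a pseudocount of 0.1 (adjusted p = 0.0726). The seed marker score had a higher mean in T1 at E-L 35, with overlapping libraries (2.06 to 4.94, against 2.04 to 2.88 in T2). With it as a covariate the 4 calls remained, with differences of -1.87, -1.52 and -1.24 for GST4, AOMT1 and 3AT and an adjusted p of 3.99e-05 for VIT_216s0050g00910.

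The T1 effect itself changed between stages. The differences at E-L 31 and E-L 35 differed for 4 of 5 genes, more negative at E-L 35 by 1.22 to 1.97 on the log2 scale (adjusted p from 0.0013 to 0.00705), where 9.75% of all tested genes changed in this direction. In a fit on only the groups compared, AOMT1 was the 1 gene still called in this contrast (adjusted p = 0.0588 for GST4, 0.139 for 3AT and 0.0747 for VIT_216s0050g00910), and with a pseudocount of 0.1 GST4 was not called (-0.96, adjusted p = 0.43). From E-L 35 to E-L 36 the same 4 genes changed back, by 1.46 ± 0.34 for GST4 (adjusted p = 0.0306), 1.85 ± 0.27 for AOMT1 (0.000642), 1.56 ± 0.37 for 3AT (0.031) and 1.74 ± 0.44 for VIT_216s0050g00910 (0.0495), against 0.502% of all tested genes. In the second contrast the call of GST4 was lost in 9 of 12 fits that left out 1 library (all but those without T2 replicate C or T1 replicate C at E-L 35 or T2 replicate A at E-L 36), with differences from 1.30 to 1.65 and adjusted p up to 0.117. That of VIT_216s0050g00910 was lost in 10 of 12 (all but those without T1 replicate C at E-L 35 or T2 replicate A at E-L 36; 1.51 to 2.01, adjusted p up to 0.163), and that of 3AT in 7 of 12 (those without any T2 library or T1 replicate A or B at E-L 35, or replicate C of T2 or B of T1 at E-L 36; 1.41 to 1.74, adjusted p up to 0.116). AOMT1 kept its call in all 12. With a pseudocount of 0.1 AOMT1 alone was called in the second contrast (adjusted p = 0.467, 0.223 and 0.158 for GST4, 3AT and VIT_216s0050g00910). The call of VIT_216s0050g00910 was lost in 4 more fits, without a filter on low values, without the mean-variance trend, with a replicate block and on only the groups compared (adjusted p between 0.0566 and 0.0756). In the 2 later stage changes of T1 (0.114% and 0.00% of all tested genes called) and the 2 of T8 (2.12% and 0.114%), none of the 5 was called by limma, and none had an unadjusted p under 0.05.

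**Figure D2:**
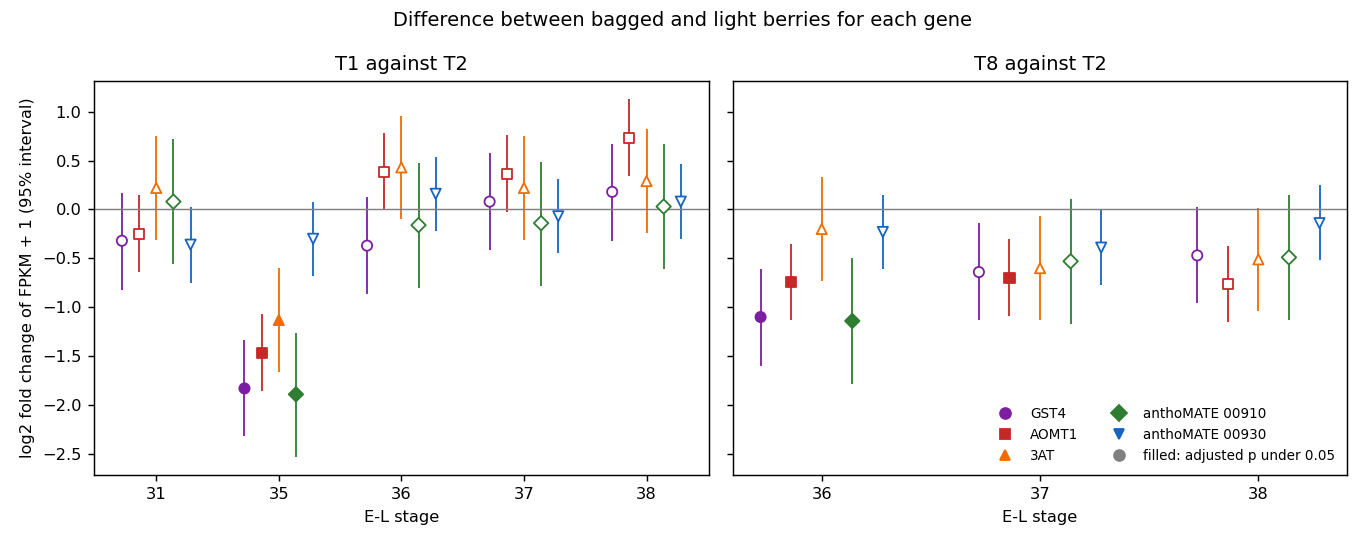
Log2 fold change of FPKM + 1 between bagged and light berries against E-L stage, for T1 on the left and T8 on the right, with 95% intervals from limma and filled symbols at an adjusted p under 0.05. In T1, 4 genes lie between -1.89 and -1.13 at E-L 35 and all 5 lie between -0.37 and 0.73 from E-L 36 on, while in T8 all differences lie under 0.

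T1 berries, still bagged, also switched the genes on between E-L 31 and 35, only to a lower level: all 5 rose, against 13.0% of all tested genes, by 5.66 ± 0.24 for GST4, 4.13 ± 0.19 for AOMT1, 3.49 ± 0.26 for 3AT, 3.73 ± 0.31 for VIT_216s0050g00910 and 0.76 ± 0.19 for VIT_216s0050g00930 (limma, adjusted p from 1.94e-18 to 0.00118). The call of VIT_216s0050g00930 was lost in a fit on only the groups compared (adjusted p = 0.15). By E-L 36 the T1 means lay closer to those of T2, and T2 had itself changed over that step. In T2, AOMT1 changed by -1.29 ± 0.19 (limma, adjusted p = 9.83e-06) and 3AT by -0.61 ± 0.26 (adjusted p = 0.0961). Between E-L 35 and E-L 36, 4 of 5 genes rose in T1, against 12.2% of all tested genes. GST4 went to 187.27, 221.94 and 211.60 FPKM (1.49 ± 0.24, adjusted p = 2.04e-05), VIT_216s0050g00910 to 116.70, 128.54 and 118.97 FPKM (1.65 ± 0.31, adjusted p = 0.000159) and 3AT to 40.72, 53.19 and 45.16 FPKM (0.95 ± 0.26, adjusted p = 0.00599). AOMT1 went to 40.85, 49.17 and 39.49 FPKM, a change of 0.56 ± 0.19 (adjusted p = 0.0301). That call was lost without T1 replicate A or B at E-L 35, or A or B at E-L 36 (adjusted p between 0.0517 and 0.179), with a pseudocount of 0.1 (0.0879) and in a fit on only the groups compared (0.138). That of 3AT was lost with a pseudocount of 0.1 (adjusted p = 0.0839). None of the 5 passed the limma test between E-L 36 and 37 in T1 (0 at an unadjusted p under 0.05), against 28.9% of all tested genes.

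At E-L 36, 37 and 38 none of the 5 genes differed between T1 and T2 in the limma test, where 2.28%, 3.88% and 0.580% of all tested genes did (0, 0 and 1 of 5 at an unadjusted p under 0.05). GST4 in T1 averaged 206.94 ± 17.8, 270.78 ± 71.5 and 223.13 ± 13.3 FPKM at these stages, or 77.7%, 107.3% and 112.6% of T2. At E-L 36 GST4 read 187.27, 221.94 and 211.60 FPKM in T1 and 266.93, 266.03 and 266.04 FPKM in T2 (-0.37 ± 0.24, limma, adjusted p = 0.577). The 95% intervals of its differences ran from -0.86 to 0.13 at E-L 36 and from -0.32 to 0.67 at E-L 38, and differences within them are not excluded. VIT_216s0050g00910 and VIT_216s0050g00930 stood at 86.8% to 111.9% of T2 at these 3 stages.

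The T1 means of AOMT1 stood above the light level. At harvest it read 38.03, 48.19 and 44.19 FPKM in T1 and 24.09, 24.49 and 28.50 FPKM in T2, so every T1 library lay above every T2 library and the T1 mean was 169.2% of T2. How many of all tested genes lay apart in this way at harvest was not counted. The difference of 0.73 ± 0.19 (95% interval from 0.34 to 1.13) had an unadjusted p of 0.000603 and an adjusted p of 0.0826 in limma, and so missed the threshold over 21902 genes. At E-L 36 and 37 the T1 means were 129.7% and 131.5% of T2, with overlapping libraries. 3AT averaged 135.9%, 117.2% and 122.5% of T2 at the 3 stages, and its libraries at E-L 36 did not overlap (lowest T1 40.72, highest T2 38.26 FPKM), with a difference of 0.43 ± 0.26 (adjusted p = 0.524). VIT_216s0050g00930 was likewise above T2 in every T1 library at E-L 36 (lowest T1 34.46, highest T2 33.48 FPKM; 0.16 ± 0.19, adjusted p = 0.827). At that stage every T1 library lay above T2 for 10.1% of all tested genes.

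The T8 bags, worn only across véraison, went on at E-L 35, the stage at which AOMT1, 3AT and VIT_216s0050g00910 had their highest T2 means. From T2 at E-L 35 to T8 at E-L 36 all 5 genes fell, against 8.30% of all tested genes. AOMT1 fell most, from 81.97 ± 9.12 to 19.28 ± 2.31 FPKM (-2.03 ± 0.19, adjusted p = 9.29e-09), followed by VIT_216s0050g00910 (-1.23 ± 0.31, adjusted p = 0.00378) and GST4 (-1.07 ± 0.24, adjusted p = 0.00125). 3AT (-0.80 ± 0.26, adjusted p = 0.0214) and VIT_216s0050g00930 (-0.56 ± 0.19, adjusted p = 0.027) fell less. This comparison spans a stage as well as the bag. Over the same step T2 berries changed by -1.29 for AOMT1, -0.61 for 3AT and -0.33 for VIT_216s0050g00930. For VIT_216s0050g00910 and GST4 the T2 changes were -0.09 and 0.03. The calls of 3AT and VIT_216s0050g00930 were each lost without any of 4 of the 6 libraries: for 3AT without T2 replicate B or C or T8 replicate A or B (adjusted p between 0.0558 and 0.0699), and for VIT_216s0050g00930 without T2 replicate B or C or T8 replicate B or C (adjusted p between 0.0578 and 0.114). With a pseudocount of 0.1 GST4 (adjusted p = 0.176) and 3AT (0.161) were not called, and with the seed marker score as a covariate VIT_216s0050g00930 was not (-0.38, adjusted p = 0.362).

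The T8 comparisons use the same T2 libraries as those of T1. Against T2 berries of the same stage, 3 of 5 genes were lower in T8 at E-L 36, against 2.64% of all tested genes. GST4 read 114.35, 109.37 and 150.65 FPKM in T8 and 266.93, 266.03 and 266.04 FPKM in T2, a difference of -1.10 ± 0.24 (limma, adjusted p = 0.0021). VIT_216s0050g00910 read 62.50, 51.74 and 69.46 FPKM in T8 and 184.03, 136.84 and 98.85 FPKM in T2, a difference of -1.14 ± 0.31 (limma, adjusted p = 0.0134). AOMT1 read 21.87, 18.52 and 17.45 FPKM in T8 and 42.63, 29.87 and 27.38 FPKM in T2, a difference of -0.74 ± 0.19 (limma, adjusted p = 0.00922). 3AT (28.59, 27.08 and 33.20 FPKM) overlapped T2, with a difference of -0.20 (95% interval from -0.73 to 0.33). VIT_216s0050g00930 read 28.66, 24.58 and 27.27 FPKM in T8 and 32.77, 33.48 and 28.79 FPKM in T2, with a difference of -0.23 (from -0.61 to 0.15).

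The call of AOMT1 was lost without T2 replicate A (-0.55, adjusted p = 0.0914), and that of VIT_216s0050g00910 without T2 replicate A (-0.92, adjusted p = 0.0919) or T8 replicate B (-1.03, adjusted p = 0.062). A pseudocount of 0.1 left AOMT1 as the 1 gene called, with adjusted p = 0.227 for GST4 and 0.062 for VIT_216s0050g00910. A fit on only the groups compared left GST4 as the 1 gene called, with adjusted p = 0.0722 for AOMT1 and 0.0514 for VIT_216s0050g00910. The seed marker score was higher in T8, as given above. With it as a covariate the same 3 genes were lower, by -1.32, -0.98 and -1.62 for GST4, AOMT1 and VIT_216s0050g00910 (adjusted p = 0.0255, 0.0352 and 0.0299).

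After the bags came off, the T8 levels stayed under T2, and fewer differences passed the test. At E-L 37 the T8 libraries of all 5 genes lay beneath every T2 library, as did those of 17.1% of all tested genes, and at harvest those of 4, against 5.82%. At E-L 37 AOMT1 was the 1 gene of 5 called lower (4 at an unadjusted p under 0.05), against 2.48% of all tested genes. It read 13.76, 19.08 and 14.59 FPKM in T8 and 22.19, 29.96 and 26.32 FPKM in T2, a difference of -0.70 ± 0.19 (limma, adjusted p = 0.0275). That call was lost without T2 replicate B or C or T8 replicate A or C (adjusted p between 0.0927 and 0.119) and under median-of-ratios scaling (adjusted p = 0.0526), a pseudocount of 0.1 (0.0817) and a fit on only the groups compared (0.0745). GST4 read 150.06, 156.59 and 175.69 FPKM, all under the lowest T2 library (227.07), with a difference of -0.64 ± 0.24 (adjusted p = 0.118).

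At harvest none of the 5 differed between T8 and T2 in the limma test (1 at an unadjusted p under 0.05), where 0.0685% of all tested genes did, or 15 genes. AOMT1 read 14.22, 15.00 and 14.94 FPKM in T8, beneath every T2 library, with a difference of -0.76 ± 0.19 (unadjusted p = 0.000411, adjusted p = 0.196). The size was close to that at E-L 36 and 37, and the change of the T8 effect between stages was 0.04 ± 0.27 and then -0.07 ± 0.27 (adjusted p = 0.976 and 1). GST4 (147.29, 145.36 and 134.87 FPKM) also lay beneath every T2 library, with a difference of -0.47 ± 0.24 (adjusted p = 0.789). The T8 means of the other 3 genes were 68.8% to 90.9% of T2.

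Within T8, none of the 5 genes passed the limma test between E-L 36 and E-L 37, the step after light returned (0 at an unadjusted p under 0.05), against 28.4% of all tested genes. GST4 changed by 0.37 (95% interval from -0.12 to 0.87) and VIT_216s0050g00910 by 0.41 (from -0.23 to 1.05), while AOMT1 changed by -0.28 (from -0.67 to 0.11). Between E-L 37 and harvest VIT_216s0050g00910 fell from 74.93, 85.08 and 83.55 to 46.06, 36.11 and 37.94 FPKM (-1.01 ± 0.31, adjusted p = 0.0151), as did 15.4% of all tested genes. The call was lost without T8 replicate B at E-L 38 (adjusted p = 0.0558), with a pseudocount of 0.1 (0.0607) and with the seed marker score as a covariate (-0.82, adjusted p = 0.0618). In T1 the same gene fell at this step by 0.87 on the log2 scale (-0.87 ± 0.31, adjusted p = 0.0326), where 15.4% of all tested genes also fell, and that call was lost without T1 replicate B at E-L 37 or any of the 3 libraries at E-L 38 (adjusted p between 0.0561 and 0.123) and with a pseudocount of 0.1 (0.102).

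Set against T1 berries, which were bagged far longer, T8 berries had less of AOMT1 at all 3 shared stages. AOMT1 was the 1 gene of 5 called lower at E-L 36, 37 and 38, where 0.575%, 1.35% and 0.0959% of all tested genes were lower. The T8 values listed above lay beneath every T1 library at each stage. The differences were -1.12 ± 0.19 (adjusted p = 0.000294), -1.06 ± 0.19 (adjusted p = 0.000678) and -1.49 ± 0.19 (adjusted p = 9.43e-06). At harvest the T1 mean of 43.47 ± 5.12 FPKM thus stood against 14.72 ± 0.434 FPKM in T8. In a fit on only the groups compared, the call at E-L 37 was lost (adjusted p = 0.0791), and without any 1 library all 3 calls stayed. The seed marker score was 5.66 ± 0.62 in T8 and 2.38 ± 0.92 in T1 at E-L 36, and with it as a covariate AOMT1 differed by -1.34, -1.23 and -1.51 (adjusted p = 0.00833, 0.00357 and 8.02e-06).

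The other 4 genes were also lower in T8 than in T1 without passing the test. GST4 differed by -0.74, -0.72 and -0.64 at the 3 stages (adjusted p = 0.0667, 0.0738 and 0.393), and its libraries, like those of 3AT and VIT_216s0050g00910, overlapped at none of them. All libraries of T8 lay under those of T1 for 6.48%, 8.30% and 5.05% of all tested genes at the 3 stages. 3AT differed by -0.63, -0.83 and -0.80 (adjusted p = 0.174, 0.0521 and 0.229). With median-of-ratios scaling, GST4 (adjusted p = 0.033) and VIT_216s0050g00910 (0.0362) were called at E-L 36 and GST4 (0.0464) and 3AT (0.0353) at E-L 37. 3AT was also called at E-L 37 without T1 replicate C (adjusted p = 0.0472) and with the seed marker score as a covariate (-1.18, adjusted p = 0.0337).

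A ratio of 2 genes within a library depends little on how the library was scaled. UFGT (VIT_216s0039g02230), the glucosyltransferase that acts before these genes, was itself lower in T1 at E-L 35 (-1.56 ± 0.17, adjusted p = 1.21e-07) and in T8 at E-L 36 (-0.94 ± 0.17, adjusted p = 0.000255) and E-L 37 (-0.63 ± 0.17, adjusted p = 0.022). Each gene was compared with it as log2 of (FPKM + 1) over (FPKM + 1), in 66 exact permutation tests that include the ratio of the transporter genes to each other. With 3 against 3 libraries no p below 0.1 is possible, and after Benjamini-Hochberg adjustment no test could pass 0.05, so the ratios are given as values with their spread.

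At a given stage from E-L 36 on, the treatments had like ratios of GST4 and of VIT_216s0050g00910 to UFGT. The ratio of GST4 to UFGT averaged between 1.72 and 2.14 in those 9 groups, and its T1 and T2 means at E-L 35 were 1.24 ± 0.19 and 1.51 ± 0.07. At harvest the ratio of GST4 to UFGT was higher in every T1 library than in T2, by 0.15 (exact permutation p = 0.1, n = 3 and 3). That of VIT_216s0050g00910 differed between treatments by at most 0.21 in size at E-L 36 to 38. The ratio of AOMT1 to UFGT was higher in T1 than in T2 in every library at E-L 36, 37 and 38, by 0.54, 0.41 and 0.70 (exact permutation p = 0.1 each, n = 3 and 3), and at harvest it was -0.47 ± 0.20 in T1, -1.17 ± 0.02 in T2 and -1.39 ± 0.16 in T8. The ratio of 3AT to UFGT was likewise higher in every T1 library at E-L 35, 36, 37 and 38, by 0.43, 0.58, 0.26 and 0.26. It was -0.05 ± 0.14 in T8 and -0.79 ± 0.20 in T2 at E-L 36, without overlap, and differed between them by 0.03 at E-L 37 and 38. That of VIT_216s0050g00930 was higher in T1 without overlap at E-L 35 (by 1.26) and E-L 36 (by 0.31), and in T8 at E-L 36, 37 and 38 (by 0.71, 0.24 and 0.41).

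The leading transporter gene changed at véraison, and its lead was smaller in T1 at E-L 35 and in T8 at E-L 36 than in T2. VIT_216s0050g00930 led before véraison, with a log2 ratio of VIT_216s0050g00910 to VIT_216s0050g00930 of -3.18 ± 1.22 in T2 at E-L 31, and VIT_216s0050g00910 led afterwards, with 1.83 ± 0.18 in T2 at E-L 35. In T1 at E-L 35 the ratio was 0.23 ± 0.51, lower by 1.60 (-1.60, exact permutation p = 0.1, n = 3 and 3), and in T8 at E-L 36 it was 1.15 ± 0.14 against 2.07 ± 0.36 in T2. The mean ratio stayed above 0 in all groups from E-L 35 on, although VIT_216s0050g00910 read a little less than VIT_216s0050g00930 in T1 replicates A and B at E-L 35. At E-L 37 the 3 treatments were within 0.14 of each other, and at harvest T8 stood at 0.65 against 1.00 in T2.

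**Figure D3:**
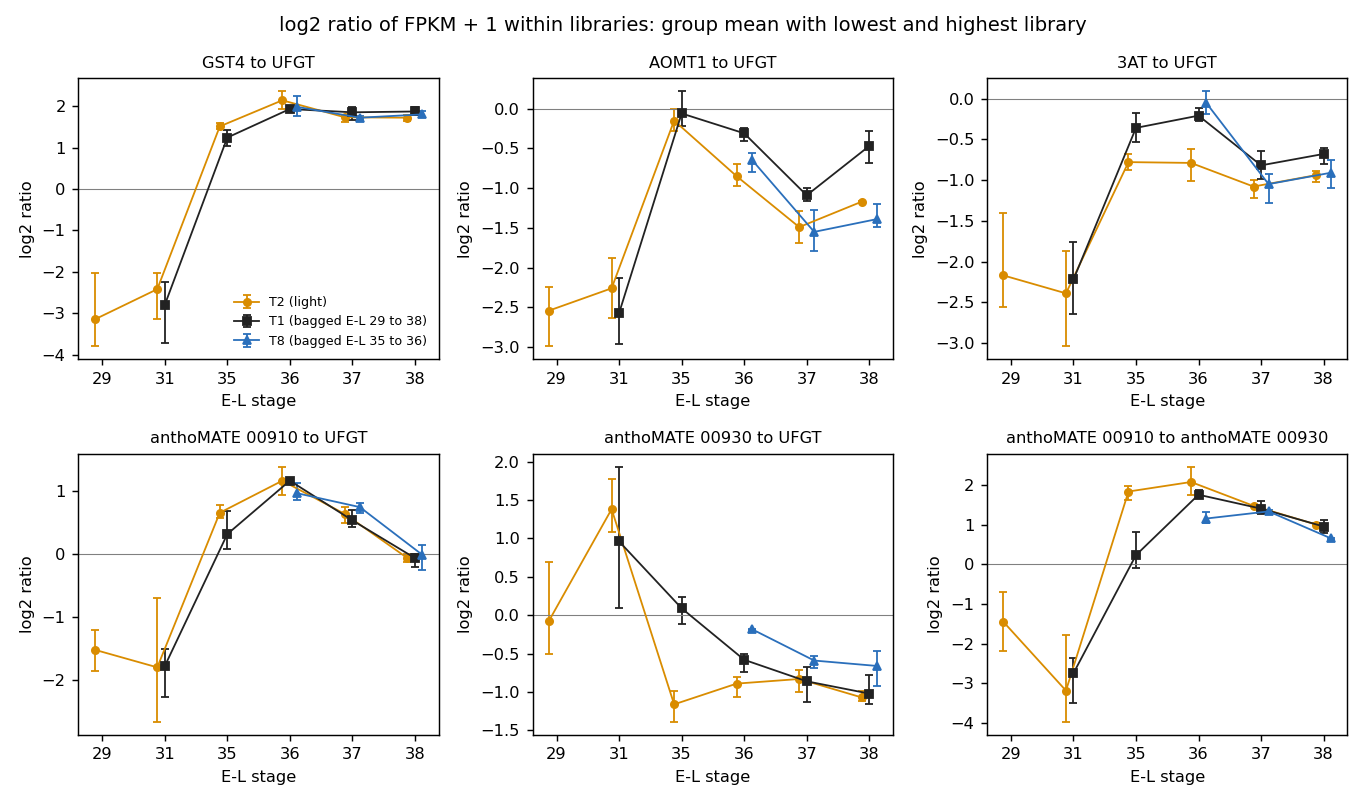
Log2 ratio of FPKM + 1 within libraries against E-L stage, for each gene over UFGT and for VIT_216s0050g00910 over VIT_216s0050g00930, as the mean of 3 libraries with bars from the lowest to the highest library. From E-L 36 on the treatments run together for GST4 and VIT_216s0050g00910, and the T1 ratio of AOMT1 lies above that of T2 from E-L 36 to 38.

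The reads were short, 50 bases from 1 end, and near-identical copies can share or lose reads, so values of tandem genes carry that doubt. AOMT1 sits in a row of O-methyltransferase loci. VIT_201s0010g03490 followed it: 19.10, 23.02 and 23.09 FPKM in T2 at E-L 35 against 5.87, 4.31 and 10.04 FPKM in T1, a difference of -1.62 ± 0.36 (limma, adjusted p = 0.0023). Its rise from E-L 31 to E-L 35 in T2 was 3.95 ± 0.36 (adjusted p = 8.4e-11) and its fall to E-L 36 was -1.78 ± 0.36 (adjusted p = 0.000434). Whether reads of AOMT1 were counted there was not tested.

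VIT_201s0010g03460, a few loci further along, had another pattern. It read 22.51, 25.23 and 26.04 FPKM in T2 at E-L 35 and 33.84, 38.00 and 30.77 FPKM in T1, and was higher in T1 (0.46 ± 0.10, adjusted p = 0.00303). It did not move at the véraison step in T2 past the threshold (-0.13 ± 0.10, adjusted p = 0.304). VIT_201s0010g03470 never averaged over 3.19 FPKM in a group. Beside the transporter genes, VIT_216s0050g00900, also annotated as a TRANSPARENT TESTA 12-like MATE protein, was highest in T2 at E-L 29 (5.81 ± 0.465 FPKM), fell by 0.97 on the log2 scale from E-L 31 to 35 (-0.97 ± 0.25, adjusted p = 0.0018) and did not differ between bagged and light berries in the test at any stage, and VIT_216s0050g00920 was listed at 0 in all 42 libraries.

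**Figure D4:**
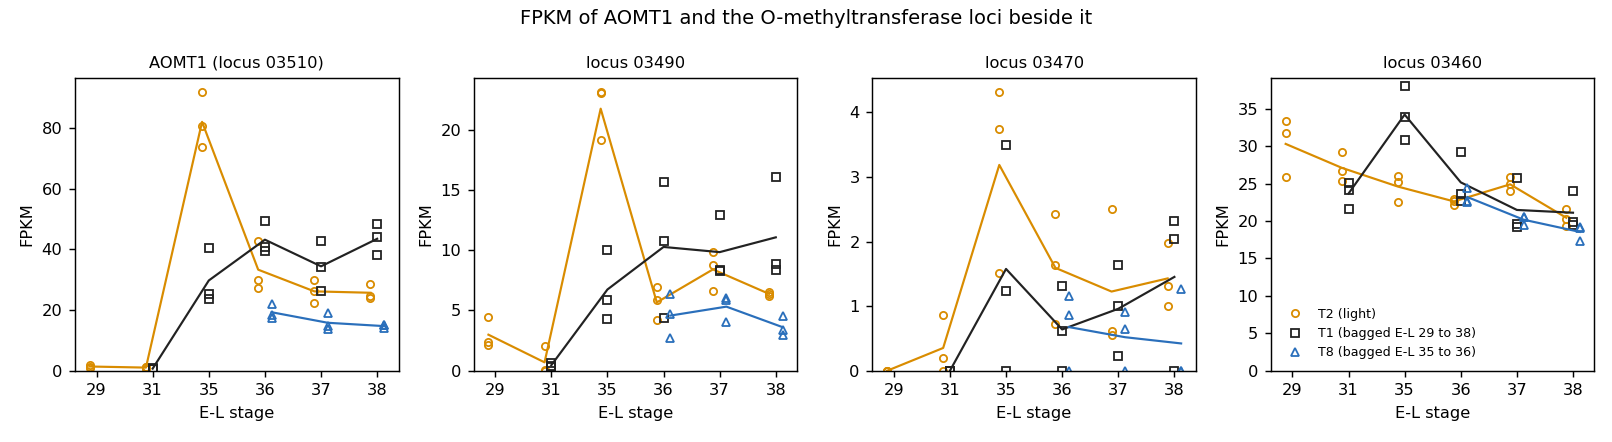
FPKM of AOMT1 and of the O-methyltransferase loci VIT_201s0010g03490, VIT_201s0010g03470 and VIT_201s0010g03460 against E-L stage, with circles for T2 libraries, squares for T1 and triangles for T8, and lines through group means. VIT_201s0010g03490 shares the T2 peak of AOMT1 at E-L 35 at a lower level, and VIT_201s0010g03460 stays between 17.39 and 38.00 FPKM throughout.

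The genes that make the pigment were counted beside these. Of 21 genes of the anthocyanin pathway list, which runs from chalcone synthase to UFGT with VviMYBA1 and VviMYBA2, 18 were lower in T1 at E-L 35 and none higher, where 11.7% of all tested genes were called, with a median of -2.09, against 0.00 over all tested genes. The smallest adjusted p values belonged to F3'5'H genes, the hydroxylases that add hydroxyl groups to the B ring, which AOMT1 can methylate: VIT_206s0009g02840 differed by -2.94 ± 0.27 (adjusted p = 7.18e-09). At E-L 36, 37 and 38 the list had 0, 2 and 0 lower genes in T1, where 2.28%, 3.88% and 0.580% of all tested genes were called. In T8, 8 of 21 were lower at E-L 36 (median -0.94), 3 at E-L 37 and 0 at E-L 38, against 2.64% and 2.48% of all tested genes lower and 0.0685% called in either direction. VviMYBA1 was lower in T1 at E-L 35 (-2.97 ± 0.39, adjusted p = 2.89e-06) and at E-L 37 (-1.46 ± 0.39, adjusted p = 0.0273), and missed the threshold at E-L 36 (-1.15 ± 0.39, adjusted p = 0.124) and E-L 38 (-1.53 ± 0.39, adjusted p = 0.0638).

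The wider families were counted without the 5 genes. Of 81 other tested glutathione S-transferase genes, 3 were higher and 8 lower in T1 at E-L 35, with a median of 0.10, where 11.7% of all tested genes were called. From E-L 31 to 35 in T2, 2 of the 81 rose and 33 fell, where 12.5% of all tested genes rose and 35.7% fell. VIT_201s0026g01340, a glutathione S-transferase with the smallest adjusted p of that family at E-L 35, stayed lower in T1 to harvest: it read 7.62, 8.86 and 6.21 FPKM there and 35.36, 32.93 and 27.70 FPKM in T2 (-1.95 ± 0.19, adjusted p = 5.06e-08), and in T8 it was lower at E-L 36 (-1.66 ± 0.19, adjusted p = 8.45e-07) and overlapped T2 at E-L 38 (0.08 ± 0.19, adjusted p = 1). Of 24 other MATE transporter genes, 1 was higher and 1 lower in T1 at E-L 35, where 11.7% of all tested genes were called. The lower one, VIT_208s0056g01070, read 1.63, 1.64 and 2.57 FPKM in T1 and 6.80, 6.27 and 6.58 FPKM in T2 (-1.37 ± 0.20, adjusted p = 1.19e-05) and was lower in T1 at all 5 stages.

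Among 10 tested ABC transporters of the C subfamily, a family that also holds vacuolar pigment carriers, 5 were lower in T1 at E-L 35 and none higher, where 11.7% of all tested genes were called, with a median of -0.34, and VIT_219s0015g00020 had the smallest adjusted p (-1.38 ± 0.17, adjusted p = 1.99e-06). At E-L 36 none of the 10 passed the test in T1, against 2.28% of all tested genes. Of 33 other genes with a hydroxycinnamoyltransferase orthology term, the term that 3AT carries, 1 was higher and 1 lower in T1 at E-L 35, against the same 11.7%, with a median of -0.05.

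The pattern over the 14 groups was compared between genes as Pearson's r of mean log2(FPKM + 1), a description without a test, in which all genes share libraries and many share the step at véraison. GST4, AOMT1, 3AT and VIT_216s0050g00910 correlated with each other at r between 0.952 and 0.983, and VIT_216s0050g00930 with them at 0.793 to 0.817. Within groups, deviations of the genes from their group means correlated at r between -0.20 and 0.53 over 42 libraries. Among the genes with a group mean of at least 5 FPKM and an annotated function, the 3 most like GST4 were VIT_202s0033g00390, VIT_202s0033g00380 and VIT_202s0033g00450 (r = 0.988, 0.984 and 0.982). All 3 had a best hit to VvMYBA3 of the berry colour locus, a set of near copies among which short reads can be split, and the first is the gene listed here as VviMYBA2. VviMYBA1 (VIT_202s0033g00410) carried the same best hit.

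VIT_202s0033g00450 was also the gene most like VIT_216s0050g00910 (r = 0.980) and among the 3 most like 3AT (0.975). For AOMT1 and 3AT the first place went to VIT_209s0002g06420, annotated as a glyoxylase I family protein (r = 0.988 and 0.982), whose r over the 42 single libraries was 0.863 and 0.862. A eugenol synthase 1-like gene, VIT_203s0088g00140, was among the 3 most like genes for AOMT1 (r = 0.965), 3AT (0.977) and VIT_216s0050g00910 (0.975). A fatty-acyl-CoA synthase gene, VIT_218s0122g01440, was among those most like AOMT1 (0.976), and a defensin-like gene, VIT_201s0010g02030, was among the 3 most like VIT_216s0050g00910 (0.971). UFGT ranked 18 for GST4, 6 for AOMT1, 11 for 3AT and 8 for VIT_216s0050g00910 but 138 for VIT_216s0050g00930. The 3 genes most like VIT_216s0050g00930 were a thioredoxin H2 gene (VIT_201s0026g01460, r = 0.956), a gene annotated as phytochrome-interacting factor 3 (VIT_201s0244g00010, 0.955) and one annotated as a translation initiation factor eIF-2B subunit (VIT_202s0025g03730, 0.940). VviMYBA1 had r between 0.757 and 0.847 with the 5 genes.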

How the data were processed

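The authors sequenced poly(A) RNA as 50-base single-end reads, aligned them to version 2 of the PN40024 genome with at most 2 mismatches (Bowtie2 2.2.5 in the submitters' processing notes) and deposited 1 FPKM value for every gene in each library. How reads were counted is not given in the sources used here. Values have 2 decimals, are not scaled to a common total, and hold no counts. Of the low values of 1593 rarely detected genes, 71.1% lay within 0.1 of a whole multiple of the smallest step, too few to recover reads, so the number of reads behind a single value was not computed. The study lists total reads and mapping ratios per library, which were not used here.

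FPKM were taken as log2(FPKM + 1), which understates changes of low genes. The 21902 genes that reached a group mean of 1 FPKM entered a single limma fit of 14 group means over all 42 libraries with a mean-variance trend (28 residual and 3.65 prior degrees of freedom), two-sided, with Benjamini-Hochberg adjustment over all 21902 genes per comparison. A gene is called at an adjusted p under 0.05 whatever its fold. The study's own test, NOISeq, was not used here. P-values from limma rest on 1 spread per gene, that between replicates within groups, pooled over all 14 groups. They do not rest on the libraries of the groups compared alone. Lists are described by counts and medians. Libraries that share a replicate letter did not deviate together (mean r of their residuals 0.00222, from -0.297 to 0.328), so no pairing was used.

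All 5 genes were tested in every comparison. Differences of VviMYBA1 are given only for T1 against T2. Those of UFGT are given only for some comparisons of T1 or T8 with T2. VviMYBA2 is counted in the anthocyanin pathway list, and its own differences are not given. The seed lists enter as the seed marker score. From each list up to 3 genes are named, by adjusted p within the comparison, and for each of the 5 the 3 genes most like it over 14 group means. The loci VIT_201s0010g03460 and VIT_201s0010g03470 and those beside the transporters were chosen by locus number within 100 and annotation. The members and lists were chosen with earlier results of these data known, and the list by hydroxycinnamoyltransferase orthology term after the annotation was seen. Alternatives were a pseudocount of 0.1, no filter, median-of-ratios scaling, no trend, a fit on only the groups compared, a replicate block, the seed marker score as a covariate, a log2 fold change of at least 1, and leaving out each library. The model was tested on simulated data. The fits used limma 3.58.1 in R 4.3.3, and the rest Python 3.11.15 with scipy 1.17.1, numpy 2.4.6, pandas 2.3.3 and matplotlib 3.10.9.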

Additional observations from a re-analysis of the deposited data

Results flagged for a closer look

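The difference between T1 and T2 berries changed between neighbouring stages for 4 of the 5 genes, by a test of the change itself in the limma model. From E-L 31 to E-L 35 the difference became more negative by -1.50 for GST4, -1.22 for AOMT1, -1.35 for 3AT and -1.97 for VIT_216s0050g00910 on the log2 scale. In that direction 9.75% of all tested genes were called. From E-L 35 to E-L 36 the difference turned back by 1.46 for GST4, 1.85 for AOMT1, 1.56 for 3AT and 1.74 for VIT_216s0050g00910, against 0.502% of all tested genes called higher. In this second change, leaving out 1 library lost the call in 9 of 12 fits for GST4, 7 for 3AT and 10 for VIT_216s0050g00910. AOMT1 kept its call in all 12, and with a pseudocount of 0.1 it alone was called. The first change rests on T1 and T2 values near 0 FPKM at E-L 31, where a smaller pseudocount moved the value of GST4 to -0.96 (adjusted p = 0.43), and in a fit on only the groups compared AOMT1 alone passed the test. No change of the T8 effect between stages passed the test.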

How the results depend on the processing

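Of 2130 fold changes of the 5 genes under other settings, 1936 kept their sign and their side of the threshold, 104 were no longer called, 18 became called and 72 changed sign, and every change of sign concerned a difference that was not called. The counts of genes called (of 5 a comparison) moved as follows, and the cause was not tested. For T8 against T2 at E-L 36, 3 became 1 with a pseudocount of 0.1 and 1 in a fit on only the groups compared. At E-L 37, 1 became 0 with a pseudocount of 0.1, 0 with median-of-ratios scaling, 0 in a fit on only the groups compared and 0 with a log2 fold change of at least 1. For T8 against T1, 1 at E-L 36 became 3 with median-of-ratios scaling and 2 in a fit on only the groups compared, and 1 at E-L 37 became 3 with median-of-ratios scaling, 2 with the seed score and 0 in a fit on only the groups compared. Between stages, 11 of 25 calls in T2 and 10 of 20 in T1 became 6 and 6 with a log2 fold change of at least 1, and 1 of 10 in T8 became 0 with a pseudocount of 0.1 and 0 with the seed score. The 8 of 20 changes of the T1 effect became 4 with a pseudocount of 0.1 and 4 in a fit on only the groups compared. Leaving out 1 library gave 0 to 1 calls for T1 against T2 at E-L 31, 4 to 4 at E-L 35, 1 to 3 for T8 against T2 at E-L 36 and 0 to 1 at E-L 37, 1 to 2 for T8 against T1 at E-L 37, 0 to 1 between stages in T8 and 5 to 8 for changes of the T1 effect. With a replicate block the 1 call that changed was that of VIT_216s0050g00910 for the T1 effect at E-L 36 minus 35 (1.74, adjusted p = 0.0566).

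Signs that changed with the seed score were 3AT (-0.04) and VIT_216s0050g00910 (-0.17) for T1 against T2 at E-L 31 and VIT_216s0050g00910 (-0.11) at E-L 38, 3AT in T2 from E-L 36 to 37 (-0.02), AOMT1 (0.01) and 3AT (0.08) in T8 from E-L 37 to 38, and, among changes of an effect, AOMT1 in T1 from E-L 36 to 37 (0.00), 3AT in T1 (-0.09) and AOMT1 in T8 (0.01) from E-L 37 to 38. With median-of-ratios scaling, which moved the median of all genes by up to 0.16, they were VIT_216s0050g00930 for T1 against T2 at E-L 37 (0.05), 3AT in T2 from E-L 36 to 37 (-0.18), AOMT1 in T2 from E-L 37 to 38 (0.04), and, among changes of an effect, VIT_216s0050g00930 in T1 from E-L 31 to 35 (0.00), AOMT1 in T1 from E-L 36 to 37 (0.09), 3AT in T1 (-0.02) and VIT_216s0050g00910 in T8 (-0.01) from E-L 37 to 38. Leaving out 1 library gave ranges across 0 for T1 against T2 for 3AT (-0.19 to 0.57) and VIT_216s0050g00910 (-0.34 to 0.72) at E-L 31, VIT_216s0050g00910 (-0.38 to 0.06) at E-L 36, GST4 (-0.12 to 0.22) and VIT_216s0050g00930 (-0.17 to 0.05) at E-L 37, and VIT_216s0050g00910 (-0.04 to 0.13) and VIT_216s0050g00930 (-0.02 to 0.19) at E-L 38. They did so between stages in T2 for GST4 from E-L 29 to 31 (-0.04 to 0.58), VIT_216s0050g00910 from 35 to 36 (-0.30 to 0.14) and 36 to 37 (-0.43 to 0.01), 3AT from 36 to 37 (-0.11 to 0.20) and AOMT1 from 37 to 38 (-0.13 to 0.08), and from E-L 37 to 38 for 3AT in T1 (-0.26 to 0.04) and for AOMT1 (-0.17 to 0.05) and 3AT (-0.23 to 0.02) in T8, and for GST4 from T2 at E-L 29 to T1 at E-L 31 (-0.28 to 0.22). Among changes of the T1 effect they did so for VIT_216s0050g00930 from E-L 31 to 35 (-0.17 to 0.46), AOMT1 (-0.21 to 0.16) and VIT_216s0050g00910 (-0.20 to 0.24) from 36 to 37 and GST4 (-0.04 to 0.30) and 3AT (-0.08 to 0.24) from 37 to 38, and for the T8 effect for AOMT1 from 36 to 37 (-0.14 to 0.17) and AOMT1 (-0.16 to 0.07), 3AT (-0.06 to 0.25) and VIT_216s0050g00910 (-0.09 to 0.14) from 37 to 38. Likeness over 42 single libraries was 0.831 for VIT_201s0026g01460 and 0.856 for VIT_202s0025g03730 to VIT_216s0050g00930. Precision is least near 0 FPKM, where a pseudocount of 0.1 moved the T1 difference of GST4 at E-L 31 to -0.88.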
